A study of Mus musculus with 10 samples.

Results

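The genes described here are 8 mouse genes that keep early progenitors growing and in an immature state: Lin28a, Lin28b, Myc, Mycn, Mycl, Hmga1, Hmga2 and Igf2bp1. They are 8 of the 20665 autosomal coding genes of the mm10 gene table, and all peaks within 100 kb of their gene bodies were taken as theirs. Merged over the 5 ATAC libraries, these windows held 135 of 76694 open chromatin regions. The groups were SoxC double knockout tissue (2 ATAC libraries), wildtype tissue (3 ATAC libraries), both from cochlea at E13.5 (embryonic day), and sorted p27kip1-GFP positive progenitors of wildtype genotype and the same age, in which Sox4 binding was mapped by CUT&RUN (3 replicates). The titles of the ATAC samples call the tissue whole organ, whereas their cell type label and protocol give the separated epithelium of the cochlear duct. These labels name neither the deleted genes nor the Cre driver, and do not say how many embryos went into a library. SoxC genes are Sox4, Sox11 and Sox12, of which Sox4 and Sox11 are the pair commonly deleted, and a Pax2cre driver is named only for the single-cell sample of the series. The RNA level of the 8 genes is not analysed here, so the label of a timing role rests on background and was not checked against expression.

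LIN28A and LIN28B are RNA-binding proteins that hold back the maturation of let-7 miRNAs, and let-7 in turn represses the mRNAs of Lin28, Hmga2, Myc family and Igf2bp genes. MYC, MYCN and MYCL are bHLH factors that bind E-boxes with MAX and drive growth and division. HMGA1 and HMGA2 are AT-hook chromatin proteins of embryonic and stem cells, and IGF2BP1 is an mRNA-binding protein that stabilises growth transcripts. In the mouse cochlea, LIN28B and let-7 set when prosensory progenitors leave the cell cycle and differentiate, and Hmga2 and Mycn are expressed in the dividing progenitors.

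Mature let-7 miRNAs from RefSeq on GRCm38.p6 are shown because they define the axis on which Lin28 acts. The capitals mark the seed, bases 2 to 8, which these let-7 family members share.
mmu-let-7a-5p: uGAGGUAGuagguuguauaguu
mmu-let-7b-5p: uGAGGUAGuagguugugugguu
mmu-let-7g-5p: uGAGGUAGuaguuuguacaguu
mmu-let-7i-5p: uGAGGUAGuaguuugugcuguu

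Promoter windows from RefSeq on the same build run from 250 bases before to 50 after a gene start. The table held windows for 6 of the 8 genes, and 5 are shown: the 4 that held a motif searched for, and that of Mycn, which held none but lay under a peak in all 5 ATAC libraries. The capitals mark ACAAAG or ACAATG, core letters of SOX sites, or the E-box CACGTG, searched on both strands, so that a match on the other strand appears as its reverse complement.
Lin28a, chr4:134018767-134019066, minus strand: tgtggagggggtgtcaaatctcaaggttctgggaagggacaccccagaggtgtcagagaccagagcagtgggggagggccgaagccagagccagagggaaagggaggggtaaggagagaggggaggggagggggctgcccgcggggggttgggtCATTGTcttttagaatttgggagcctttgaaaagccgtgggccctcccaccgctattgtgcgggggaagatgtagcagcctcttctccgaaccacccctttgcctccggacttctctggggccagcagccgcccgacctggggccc
Lin28b, chr10:45470152-45470451, minus strand: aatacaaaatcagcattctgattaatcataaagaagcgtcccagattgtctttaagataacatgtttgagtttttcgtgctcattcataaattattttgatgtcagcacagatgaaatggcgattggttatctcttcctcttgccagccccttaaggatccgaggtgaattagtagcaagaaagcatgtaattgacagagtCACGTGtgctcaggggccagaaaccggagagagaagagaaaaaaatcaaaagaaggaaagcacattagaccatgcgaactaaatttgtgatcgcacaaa
Mycn, chr12:12941787-12942086, minus strand: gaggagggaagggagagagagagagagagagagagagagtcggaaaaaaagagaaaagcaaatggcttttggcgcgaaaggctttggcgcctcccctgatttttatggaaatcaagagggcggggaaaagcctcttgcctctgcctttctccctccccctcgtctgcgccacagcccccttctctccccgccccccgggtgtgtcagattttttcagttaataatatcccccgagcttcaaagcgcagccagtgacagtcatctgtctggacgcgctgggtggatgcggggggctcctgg
Mycl, chr4:122995681-122995980, plus strand: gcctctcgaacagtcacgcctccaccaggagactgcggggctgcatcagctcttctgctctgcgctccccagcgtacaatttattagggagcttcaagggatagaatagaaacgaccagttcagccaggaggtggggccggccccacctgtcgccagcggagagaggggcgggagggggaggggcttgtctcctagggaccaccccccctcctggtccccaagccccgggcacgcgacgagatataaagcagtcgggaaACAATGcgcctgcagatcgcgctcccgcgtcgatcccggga
Hmga2, chr10:120476420-120476719, minus strand: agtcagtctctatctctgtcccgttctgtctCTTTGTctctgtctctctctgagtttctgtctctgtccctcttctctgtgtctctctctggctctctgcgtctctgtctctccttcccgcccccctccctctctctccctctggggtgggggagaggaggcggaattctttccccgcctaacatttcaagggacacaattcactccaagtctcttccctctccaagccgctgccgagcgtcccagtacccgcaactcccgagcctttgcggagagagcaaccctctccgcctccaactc

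The window of Lin28a held ACAATG on the opposite strand at -96 from the gene start, that of Mycl held ACAATG at 9, and that of Hmga2 held ACAAAG on the opposite strand at -219. The only CACGTG of these windows stood at -49 in Lin28b. Hmga1 had 2 windows and none of the 3 motifs. Among 32851 promoter windows of all genes, 18.7% held ACAAAG, 12.6% ACAATG, 28.6% either of them and 7.15% CACGTG, so such matches are common. The window of Lin28b had a GC content of 39.0%, lower than all but 8.38% of promoter windows, and those of Lin28a and Mycl had 63.3% and 64.0%, against a median of 52.7%.

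ATAC-seq cuts open chromatin with a transposase, and the deposited files gave peaks with a fold over local background and a -log10 p, with no reads per peak, so depth was unknown. Peaks were therefore compared by rank, with rank 1 the strongest -log10 p of a library, and a difference was the mean of -log2 rank in knockout minus that in wildtype tissue, so that a positive value is a stronger rank in knockout and 1 is a rank halved or doubled. The knockout lists were longer (299829 and 266873 peaks, against 166874 to 196536 in wildtype), held chromosome X and reached higher -log10 p at rank 50000 (104 and 50.5, against 19.0, 10.5 and 8.75), so genotype and the making of the lists cannot be told apart. In libraries from tissue, fewer cells of a type and less accessibility per cell cannot be told apart either. Within 1 kb of their bodies Sox4 and Sox11 had peaks in each library of both genotypes. The best ranks were 3517 to 6566 in knockout and 3395 to 11572 in wildtype. These peaks do not check the deletion, since the labels do not say what was deleted and a peak may lie outside it. Of 8 epithelial and prosensory markers, 8 in both knockout and 7 in each wildtype library had a peak among the 50000 strongest, but 2 and 2 of 4 mesenchyme markers did in knockout, against 2, 3 and 3 in wildtype, and 4 and 4 of 4 neuron and glia markers against 4, 4 and 3. The single markers went both ways. Among the epithelial and prosensory markers, Krt18 made the count of 8 against 7 (31720 and 36492 in knockout, against 70670, 103683 and 76017 in wildtype). Gata3 ranked weaker in both knockout libraries (11826 and 5492, against 4222, 2775 and 3905), as did Jag1 (9343 and 8631, against 7521, 6122 and 6163). The others of that list overlapped between genotypes. Of the mesenchyme markers, Tbx18 ranked 39488 and 30877 in knockout, against 12893, 5853 and 8805 in wildtype, and Twist1 and Prrx1 also ranked weaker in both knockout libraries (66011 to 91942, against 38542 to 57644), whereas Col1a1 ranked 13549 and 22019 in knockout, against 32172, 38964 and 20871. Of the neuron and glia markers, Neurod1 ranked 20389 and 12520 in knockout, against 8487, 6886 and 3895 in wildtype, and Elavl4 16852 and 14625, against 9641, 8798 and 4532. Sox10 ranked 14274 and 13351 in knockout, stronger than its 24303, 48804 and 67769 in wildtype, and Tubb3 overlapped between genotypes. The part of such cells in the results below was not tested.

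The gene starts of 7 of the 8 genes lay under an ATAC peak in every library, and none of the 7 passed the test between genotypes. Lin28a was the exception, with no peak over its promoter window in any of the 5 libraries. Mycn had one of the strongest start peaks, ranked 19148 and 14901 in knockout and 14826, 21725 and 15209 in wildtype libraries. The genotypes overlapped there. Mycl ranked 18596 and 23583 in knockout, against 14731, 13297 and 17792 in wildtype, just without overlap. Myc, whose window was set around the lower-coordinate gene end because the RefSeq promoter table had none, ranked 35369 and 24704 in knockout, against 15332, 14812 and 16486 in wildtype. All 3 wildtype libraries ranked this peak above both knockout libraries, and the difference of -0.93 (SE 0.34) just missed the threshold (limma, adjusted p = 0.0528) and passed it under 4 of 14 alternatives. Over the alternatives the difference lay between -1.19 and -0.15. The folds of this peak overlapped, at 7.28 and 9.15 in knockout and 7.43, 6.51 and 5.39 in wildtype, with the higher mean in knockout. The starts of Lin28b, Hmga1 and Hmga2 ranked between 21689 and 55295 over both genotypes and overlapped between them. The higher-coordinate end of Igf2bp1 was the weakest, ranked 52887 and 40178 in knockout and 55140, 104176 and 55909 in wildtype.

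**Figure D1:**
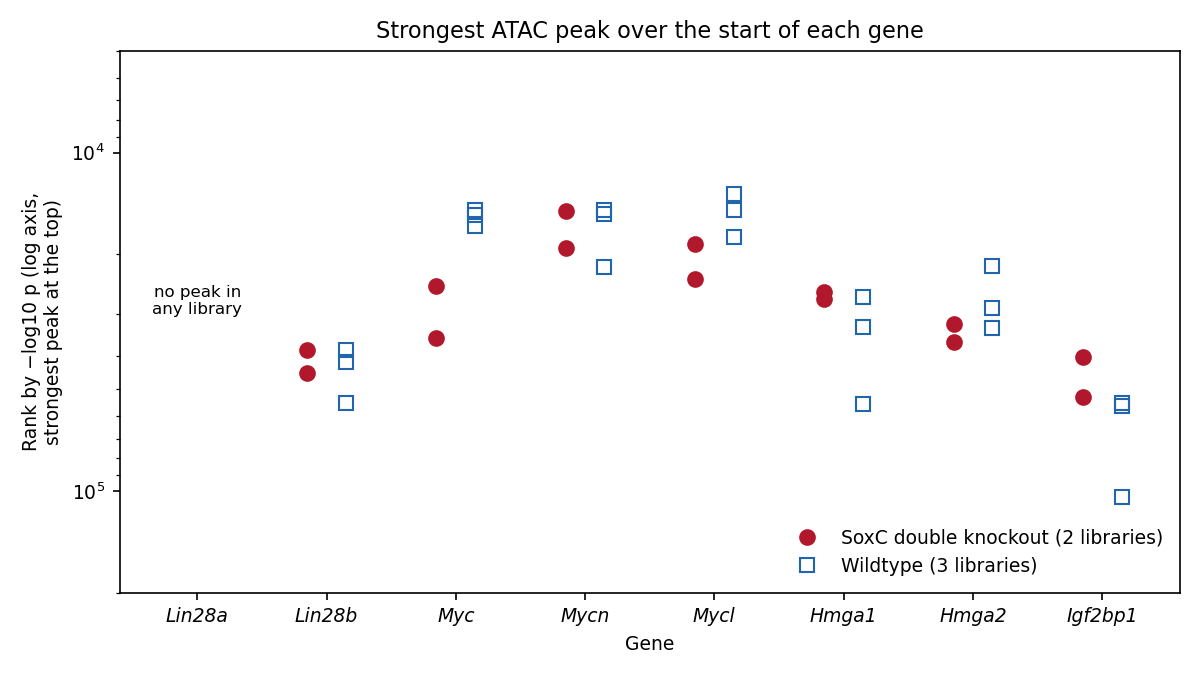
Rank of the strongest ATAC peak over each gene start (log axis, strongest at the top), one point per library, with SoxC double knockout left of wildtype. The 3 wildtype libraries at Myc rank between 14812 and 16486, above both knockout libraries, and Lin28a has no peak.

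Of the 135 regions, 111 had a peak in all 5 libraries and were tested. By limma with Benjamini-Hochberg adjustment over all 61353 regions tested, 21 of the 111 were higher in knockout (18.9%, beside 12.9% of all regions) and 13 were lower (11.7%, beside 15.3%). Their median difference was 0.25, beside -0.05 for all regions. Scaling each rank by the length of its list instead gave 32 higher and 7 lower, beside 21.1% and 9.18% of all regions, with medians of 0.57 and 0.27. On the quantile normalized fold the counts were 15 and 9 and the median was -0.0204, beside -0.061 for all regions. Where a peak had to share 250 bp with a region, 13 were higher and 13 lower, with a median of 0.00784, beside -0.215. The balance of the 2 directions thus depends on these choices. Over the bodies of the 8 genes, 1 of 34 tested regions was higher in knockout (2.94%, beside 13.8% of regions over any coding gene) and 4 were lower (11.8%, beside 13.99%).

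Regions were also classed by which libraries had a summit there among their 50000 strongest peaks. By this measure 8 of the 135 regions were wildtype-only (5.93%, beside 6.65% of all regions), 16 knockout-only (11.9%, beside 7.75%) and 51 common to all 5 libraries (37.8%, beside 37.2%). A class speaks of summits and not of openness. Of the 8 wildtype-only regions, 3 lay under a knockout peak that was itself among the 50000 strongest but had its summit elsewhere, as did 7.85% of such regions overall. These were the region over the Mycn start, one in Hmgn2 near Lin28a that was called higher in knockout (ranks 9497 and 12616, against 15684, 34215 and 35540 in wildtype), and one beside the Hmga1 start (25802 and 27008, against 42002, 46515 and 40849). The other 5 lay near Lin28b, Mycn and Hmga2 (3.70% of the 135 regions, beside 6.13% of all). None of the 16 knockout-only regions lay under such a wildtype peak, where only 0.438% of all knockout-only regions did. Knockout-only regions stood near 6 of the 8 genes, where 55.5% of coding genes have one.

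**Figure D2:**
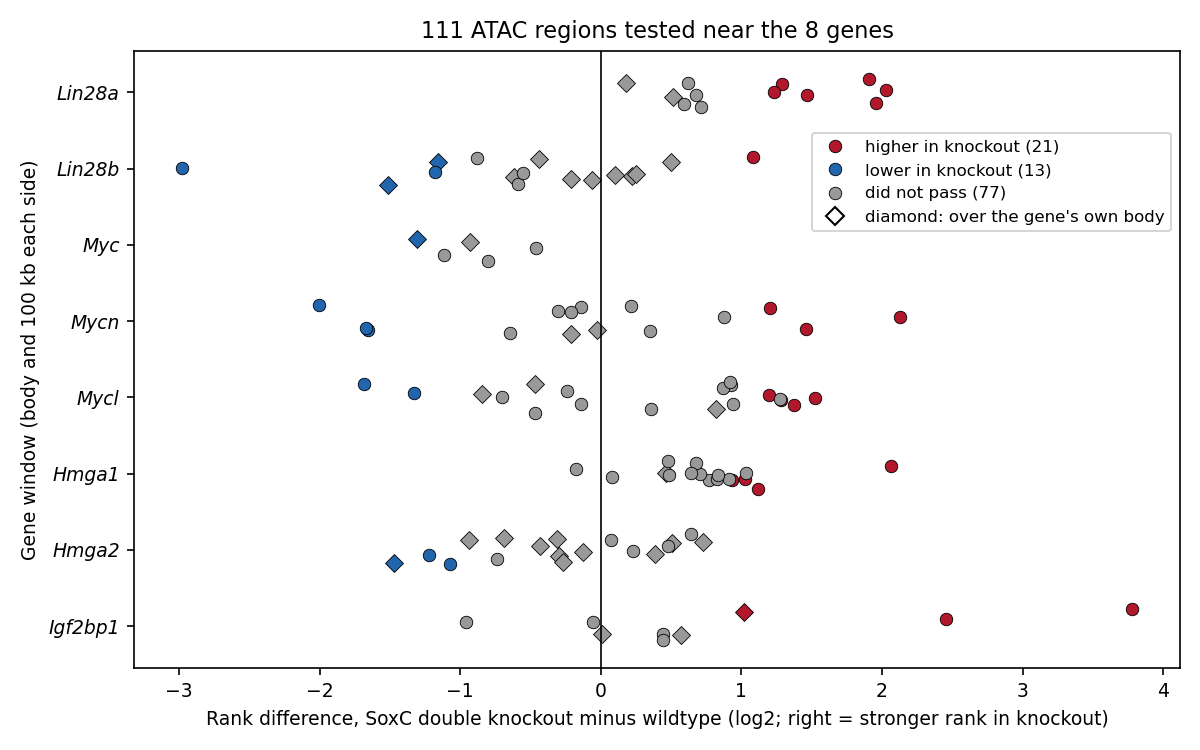
Rank difference, SoxC double knockout minus wildtype (log2), of each of the 111 tested regions by gene window, with colours for the 21 higher and 13 lower in knockout and diamonds for regions over the gene's own body. All 12 regions of the Lin28a window lie right of 0 and all 5 of the Myc window left of it.

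Lin28b, the Lin28 gene tied to cochlear timing, lost rank in knockout at 4 of 16 tested regions (25.0%, beside 15.3% of all regions). It gained at 1 (6.25%, beside 12.9%). The most changed region of its window, at chr10:45370594-45371311, lay 5306 bp downstream of Lin28b and inside the neighbouring gene Bves, which encodes a cell adhesion protein of muscle and epithelia. It ranked 33705 and 47926 in knockout libraries and 6854, 2822 and 6819 in wildtype libraries. The deposited fold there was 8.62 and 6.34 in knockout, against 12.998, 14.2 and 10.1 in wildtype, so the genotypes were apart on both scales. The difference was -2.98 (SE 0.43; limma, adjusted p = 0.000216), the lowest of the 111 regions, and the call held under all 14 alternatives. This region also carried a Sox4 site, ranked 1620 in replicate 2 and 3070 in replicate 3. A second region, within Lin28b at chr10:45458025-45458533, was among the 50000 strongest peaks in wildtype libraries only. It ranked 67389 and 63785 in knockout, against 20358, 24142 and 24489 in wildtype, with a difference of -1.52 (SE 0.33; limma, adjusted p = 0.00331), and it too kept the call under its 13 alternatives. The upstream end of the gene body, at chr10:45486207-45486743, ranked 18089 and 17031 in knockout and 8431, 8071 and 7110 in wildtype. Its difference was -1.16 (limma, adjusted p = 0.0254), and the call was lost without knockout replicate 1 or 2 or wildtype replicate 2 and with ranks scaled by list length. The RefSeq start of the promoter window, about 16 kb inside this gene body, differed by 0.10 (limma, adjusted p = 0.851).

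Other regions of the Lin28b window went both ways. A region within Popdc3, at chr10:45289113-45289892, fell by 1.18 on the log2 scale (limma, adjusted p = 0.0166), a call lost without knockout replicate 1 or 2, with scaled ranks and on the fold scale. One at chr10:45373218-45373748, only 2869 bp downstream of the gene, was higher in knockout, with ranks of 19734 and 17602, against 27619, 46844 and 47709 in wildtype. Its difference was 1.08 (limma, adjusted p = 0.0304), lost without any one of knockout replicates 1 and 2 and wildtype replicates 2 and 3. The strongest peak of the window, in the ubiquitin ligase gene Hace1, ranked 4419 and 3361 in knockout and 4970, 2579 and 1404 in wildtype, with overlap.

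Lin28a, the paralogue typical of embryonic stem cells, stood in contrast. All 12 tested regions of its window had positive differences, with a median of 0.97, and 6 were called higher and 0 lower. None of the 6 called regions lay over Lin28a itself: they lay in Hmgn2, Dhdds, Crybg2 and Ubxn11. The call in Hmgn2 used a knockout peak whose summit lay in the adjacent region. Wildtype libraries had summits in both regions, and the adjacent one differed by 0.71 and did not pass (limma, adjusted p = 0.139). On the quantile normalized fold the called Hmgn2 region differed by 0.046 (limma, adjusted p = 0.916). The largest difference, 2.03 (SE 0.47; limma, adjusted p = 0.00516), was in Ubxn11, with ranks of 2475 and 5248 in knockout, against 8084, 20348 and 19476 in wildtype. That call was lost without knockout replicate 1, as were those in Hmgn2, in Dhdds, at chr4:134078690-134079200 in Crybg2 and at chr4:134115150-134115652 in Ubxn11. On the fold scale the calls in Dhdds and at this Crybg2 region were lost too (limma, adjusted p = 0.428 and 0.507). The Ubxn11 region at chr4:134115150-134115652 (limma, adjusted p = 0.0494) was also lost on that scale and without any 1 wildtype replicate. A region of Crybg2 at chr4:134087400-134087914 kept its call under its 13 alternatives, with ranks of 9161 and 11572 in knockout and 29823, 53062 and 36490 in wildtype and a difference of 1.91 (limma, adjusted p = 0.00135). Over Lin28a the 2 tested regions differed by 0.18 and 0.51 and did not pass. Next to the Lin28a start 2 regions were among the 50000 strongest in knockout only. One, inside the gene at chr4:134017472-134017982, ranked 36553 and 40434 in knockout, and ranked 59134 and 62126 in wildtype replicates 1 and 3 with no peak in replicate 2. The other, 1361 bp upstream at chr4:134020557-134021061, ranked 32658 and 38994 in knockout, and 85797 in wildtype replicate 1 with no peak in the others. Neither entered the test above, since a wildtype library had no peak. With missing peaks set to the rank after the end of their list, they differed by 1.08 and 1.86 (limma, adjusted p = 0.0895 and 0.0128), and only the upstream one passed.

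Hmga2, a let-7 target that marks young progenitors, lost rank at 3 of 18 tested regions (16.7%, near the 15.3% of all regions). It gained at 0, beside 12.9% of all regions. Within the gene, a region at chr10:120377226-120377757 held the best mean wildtype rank of the window. It ranked 28534 and 14456 in knockout, against 4503, 8574 and 10110 in wildtype, a difference of -1.47 (SE 0.44; limma, adjusted p = 0.0192). The folds overlapped there, at 12.8 and 15.4 in knockout and 20.5, 14.3 and 10.8 in wildtype, and the call was lost without knockout replicate 1 or wildtype replicate 1 and with ranks scaled by list length. Far downstream, 88493 bp from the gene, a region at chr10:120272167-120272775 ranked 25732 and 16900 in knockout and 10089, 9110 and 7787 in wildtype. It differed by -1.22 (limma, adjusted p = 0.0219), without overlap in rank, but the call was lost without knockout replicate 1, with scaled ranks and on the fold scale. A neighbour 81137 bp from the gene, at chr10:120279492-120280131, had a summit among the 50000 strongest in wildtype only and ranked 87294 and 83523 in knockout, against 34714, 46949 and 40871 in wildtype. It differed by -1.07 (limma, adjusted p = 0.0383), and was lost in 7 of 12 alternatives, among them leaving out any one of knockout replicates 1 and 2 and wildtype replicates 1 and 2. The Hmga2 start differed by -0.31 (limma, adjusted p = 0.503).

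The window of Hmga1, its paralogue in a gene-dense stretch, moved the other way: 4 of 17 tested regions were higher in knockout (23.5%, beside 12.9% of all regions). In this window 0 were lower, beside 15.3%, and 16 of the 17 differences were above 0. The 4 calls were among the 13 tested regions nearest to another coding gene, and 0 of the 4 regions nearest to Hmga1 were called. The clearest call lay 21364 bp upstream of Hmga1 at chr17:27534659-27535210, and 20833 bp from Grm4, its nearest gene. It ranked 12514 and 15249 in knockout libraries and 34930, 106451 and 52058 in wildtype libraries, with folds of 23.8 and 21.5 against 9.81, 2.88 and 4.40. Both scales were apart, the difference was 2.07 (SE 0.41; limma, adjusted p = 0.00203), and the call held under its 13 alternatives. The other 3 called regions, between Grm4 and Rps10, differed by 0.94 to 1.12 and each lost the call without knockout replicate 1, without knockout replicate 2 and without wildtype replicate 2. At the Hmga1 start, which has 2 RefSeq windows, the ranks were 25802 and 27008 in knockout and 32758, 55295 and 26651 in wildtype, with overlap.

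Among the Myc genes, Myc itself had the fewest peaks, with 5 tested regions, all with negative differences and a median of -0.93. One passed, lower in knockout (20.0%, beside 15.3% of all regions), inside the gene at chr15:61986859-61987412. It ranked 54640 and 49804 in knockout and 20008, 24197 and 19357 in wildtype, a difference of -1.31 (SE 0.33; limma, adjusted p = 0.00813). The folds there, 5.10 and 5.30 in knockout and 6.39, 4.99 and 4.97 in wildtype, overlapped, and the call was lost on the fold scale, without knockout replicate 1 and without knockout replicate 2. Of the other tested regions, the one 1591 bp from the gene had higher folds in knockout (6.40 and 7.46, against 5.43, 4.09 and 4.48). At the rest the folds overlapped. The Myc window held no other coding gene.

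Mycn, which is needed for the growth of the inner ear, had 15 tested regions, of which 3 were higher and 3 lower in knockout. Each was a share of 20.0%, beside 12.9% higher and 15.3% lower among all regions. Closest to the gene, 3317 bp downstream at chr12:12932254-12932776, was a knockout-only region. It ranked 18113 and 19049 in knockout, against 55738, 139543 and 68712 in wildtype, with folds of 10.0 and 10.8 against 5.41, 2.32 and 3.34. Its difference of 2.13 (SE 0.40; limma, adjusted p = 0.00139) was the largest gain of the Myc gene windows, and it kept the call under its 13 alternatives. The regions 49634 and 59300 bp downstream also gained, by 1.20 and 1.46 (limma, adjusted p = 0.0142 and 0.00621), both lost without knockout replicate 1 and the nearer one also without knockout replicate 2 and on the fold scale. Of the losses, a region 30971 bp downstream at chr12:12904595-12905122 ranked 31707 and 31524 in knockout and 9822, 12649 and 8127 in wildtype. It differed by -1.66 (SE 0.36; limma, adjusted p = 0.00326) and held under all 14 alternatives. Upstream, regions 45384 and 84045 bp from the gene differed by -2.003 and -1.674 (limma, adjusted p = 0.00764 and 0.0112). Their deposited folds overlapped, at 15.9 and 13.2 in knockout against 14.4, 14.1 and 15 in wildtype for the nearer one, and both calls were lost on the fold scale. The farther one was also lost without knockout replicate 1. The region between these gains and losses, 24860 bp downstream at chr12:12910596-12911233, was strong in both genotypes, ranked 3308 and 4959 in knockout and 4314, 3439 and 3345 in wildtype. It differed by -0.14 (limma, adjusted p = 0.833).

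At the Mycn start, the summit of the peak over the promoter window lay at -679 and -681 from the RefSeq start in knockout libraries. In wildtype it lay at -65, -84 and -42. Wildtype replicates 2 and 3 also had a summit among their 50000 strongest in the adjacent region 429 bp upstream, as did both knockout libraries. Overlapping peaks were merged with only the strongest summit kept, so these values do not show a shift of summit between genotypes. The region over the start held no kept knockout summit and was classed as wildtype-only. It differed by -0.21 (limma, adjusted p = 0.675) and lay under a peak of similar rank in all 5 libraries.

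Mycl had 19 tested regions, 4 higher (21.1%, beside 12.9% of all regions) and 2 lower (10.5%, beside 15.3%) in knockout. The one called gain nearest to the gene, 10014 bp upstream at chr4:122985026-122985574, ranked 11000 and 10288 in knockout, against 34304, 23343 and 35712 in wildtype. Its difference was 1.52 (SE 0.35; limma, adjusted p = 0.00485), held under all 14 alternatives. A weaker region 8347 bp upstream went the other way, ranked 122355 and 144570 in knockout and 34491, 70635 and 60853 in wildtype, at -1.33 (limma, adjusted p = 0.0425). That call was lost without knockout replicate 1 or 2 or wildtype replicate 2 and with ranks rescaled or recomputed. Inside Trit1, which encodes a tRNA-modifying enzyme, a region at chr4:123050804-123051320 ranked 51323 and 28610 in knockout and 17693, 10187 and 9457 in wildtype. It differed by -1.68 (limma, adjusted p = 0.00523), lost without knockout replicate 1. The other 3 gains lay 68890 to 80313 bp downstream and differed by 1.20 to 1.37, and each lost the call without knockout replicate 1.

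Igf2bp1 had 9 tested regions, 3 higher (33.3%, beside 12.9% of all regions) and 0 lower (beside 15.3%) in knockout. The largest difference of all 111 regions was here, but far from the gene, at chr11:96075503-96076204. It lay 69559 bp from Igf2bp1 and overlapped the higher-coordinate end of Atp5g1, a gene of mitochondrial ATP synthase. It ranked 141 and 421 in knockout and 3809, 3914 and 2517 in wildtype, a difference of 3.78 (SE 0.62; limma, adjusted p = 0.000502). The deposited folds were 15.9 and 18.1 in knockout, against 15.2, 16.3 and 14.5 in wildtype. These overlapped, and on the quantile normalized fold scale the difference was -0.23 (limma, adjusted p = 0.352), so this gain is one of rank by -log10 p only. By contrast a region within Snf8, an endosomal sorting gene, at chr11:96034612-96035139, gained on both scales. It ranked 4859 and 9872 in knockout and 29069, 36138 and 52058 in wildtype, with folds of 23.9 and 21.8 against 11.4, 6.48 and 4.40. Its difference was 2.45 (SE 0.39; limma, adjusted p = 0.00045), held under all 14 alternatives. Over Igf2bp1 itself, 1 of 3 tested regions passed, at chr11:95982407-95982979, higher by 1.02 (limma, adjusted p = 0.047) and lost in 9 of 14 alternatives, among them leaving out knockout replicate 1 or 2 or wildtype replicate 2 or 3.

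**Figure D3:**
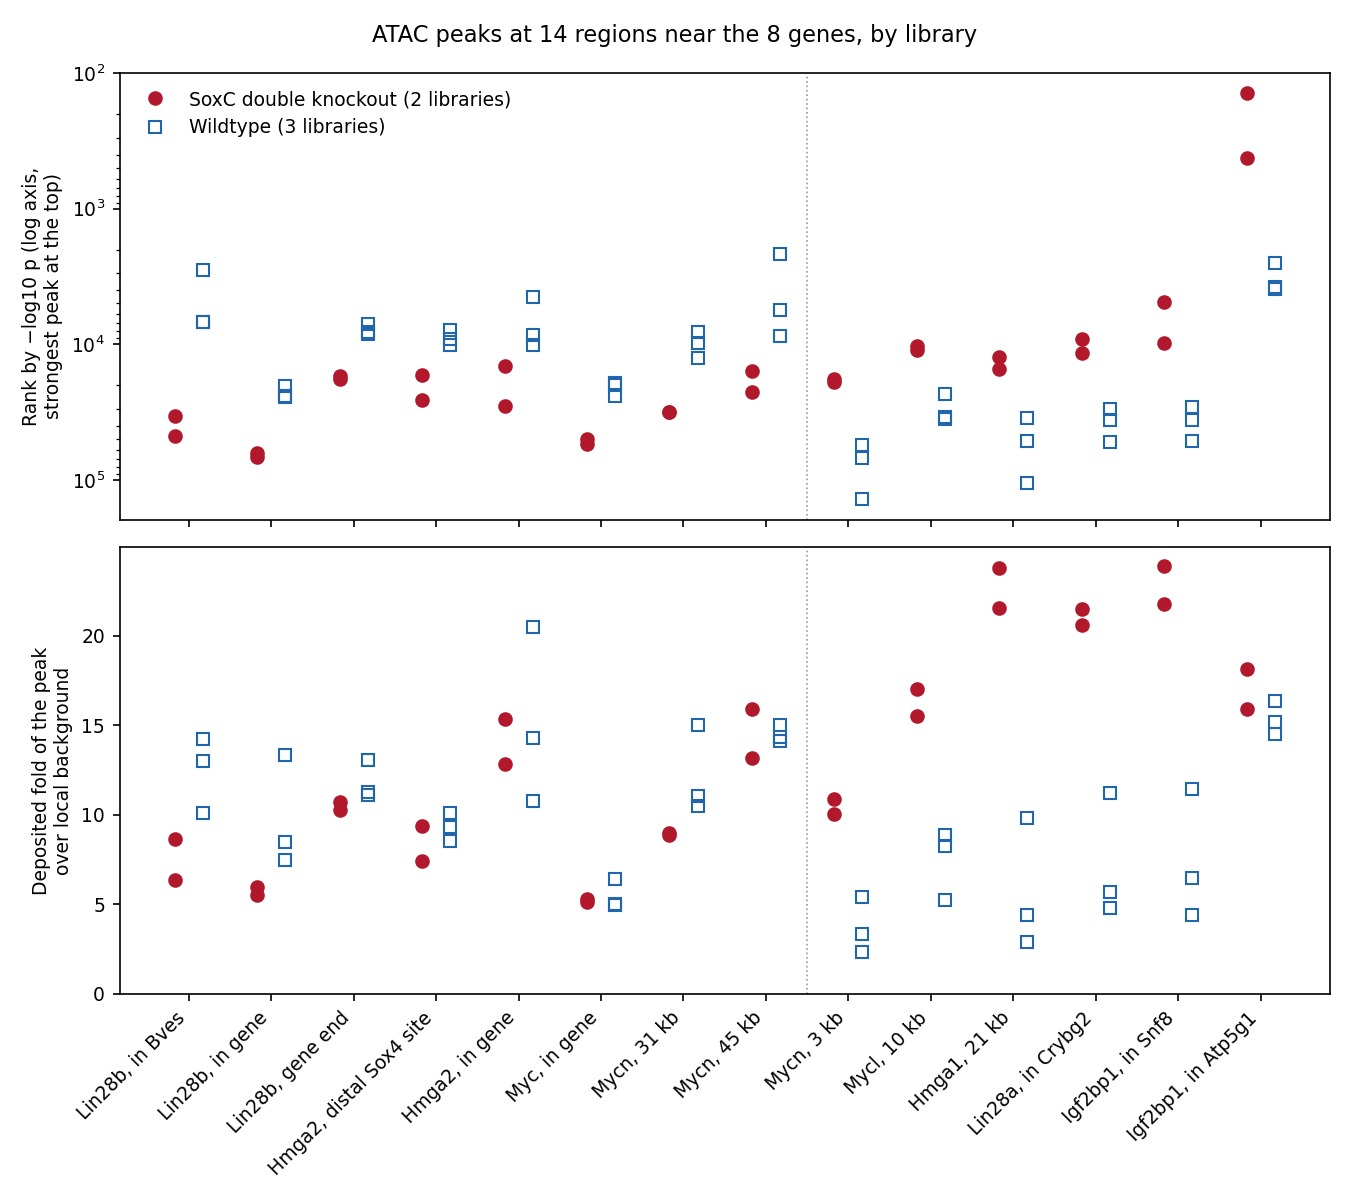
Rank by -log10 p (upper panel, log axis, strongest at the top) and deposited fold over local background (lower panel) at 14 called regions, one point per library, with SoxC double knockout left of wildtype. The 8 regions left of the dotted line ranked lower and the 6 right of it higher in knockout. The folds of the 2 genotypes overlap at the region labelled in Atp5g1, which lies over the end of that gene (15.9 and 18.1 against 14.5 to 16.3).

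The direction of the calls went with how many other genes a window held. The windows of Lin28a, Hmga1 and Igf2bp1, with 5 or 6 other coding genes each, had 13 of 38 tested regions higher in knockout and 0 lower. Those of Lin28b and Mycl, with 3 and 2 others, had 5 of 35 higher and 6 lower, and those of Myc, Mycn and Hmga2, with none, had 3 of 38 higher and 7 lower. Put by position, regions whose nearest coding gene was one of the 8 were higher in 5 of 61 cases and lower in 8, whereas regions nearest to another gene were higher in 16 of 50 and lower in 5. The same gradient ran through all tested regions: with 0 or 1 coding gene within 100 kb, 5.91% were higher and 24.0% lower, and with 5 to 9 coding genes, 23.2% were higher and 5.91% lower. The part of gene density in the calls at the 8 genes was not tested.

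**Figure D4:**
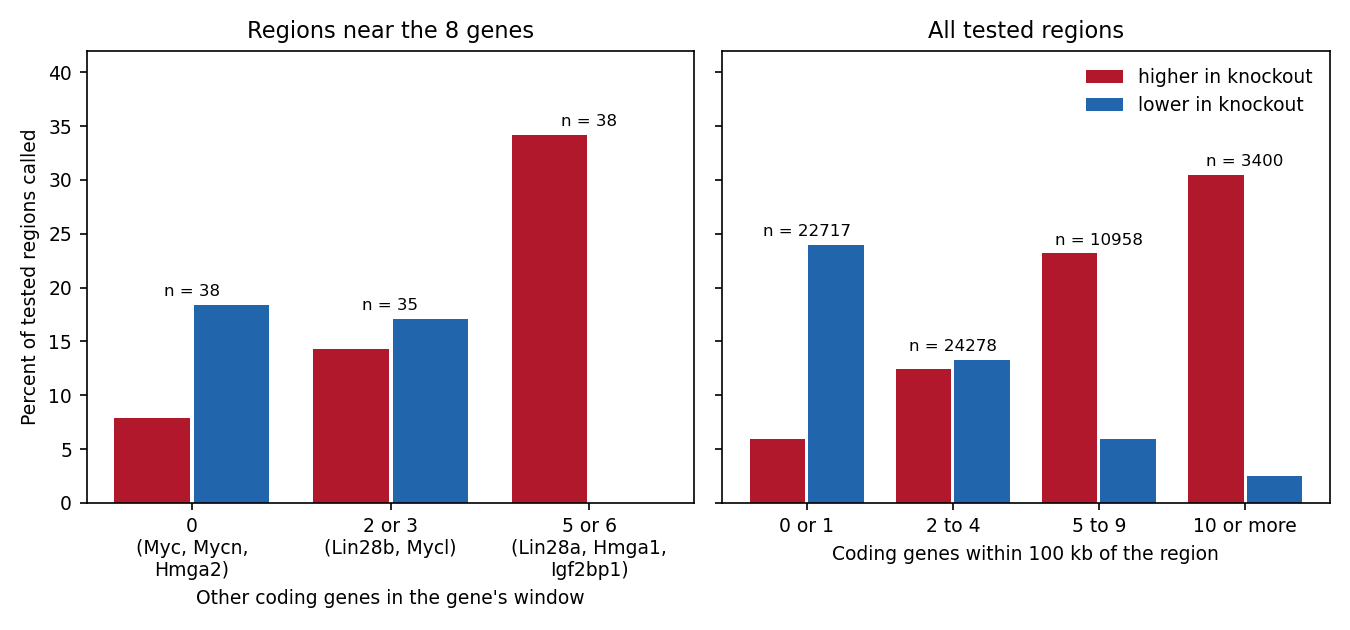
Percent of tested regions called higher or lower in knockout, by the number of other coding genes in the windows of the 8 genes (left) and by the number of coding genes within 100 kb for all tested regions (right), with the number of regions above the bars. Windows with 5 or 6 other coding genes had 34.2% higher and 0 lower.

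Sox4 CUT&RUN found sites near Lin28b, Hmga2 and Igf2bp1. A site was a window among the 20000 strongest peaks in at least 2 of 3 replicates, and 3 of the 8 genes had 1 within 100 kb (37.5%, beside 27.6% of coding genes). These 3 sites lay over 3 of the 135 ATAC regions (2.22%, beside 1.68% of all regions), and they were not set against a control antibody. The site near Lin28b was the one in Bves, at chr10:45370505-45371183, without a peak in replicate 1 and with folds of 4.92 and 3.64 in replicates 2 and 3. The site near Hmga2, at chr10:120272178-120272950, lay over the distal region that ranked lower in knockout. It ranked 12525 in replicate 1, within a block of tied peaks that reached past the 20000 limit, and 6002 in replicate 2, with no peak in replicate 3. With tied peaks ordered by position it was no longer a site. The site near Igf2bp1 was the one at the end of Atp5g1, found in all 3 replicates at ranks 16, 1840 and 95 with folds of 15.03, 4.76 and 6.39.

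Other strong Sox4 peaks near these genes were among the 20000 strongest in a single one of the 3 lists used. The region 24860 bp downstream of Mycn ranked 290 in replicate 2, only 27700 in replicate 3, and had no peak in replicate 1. A peak 92131 bp from Lin28a, nearest to Rps6ka1, ranked 130 in replicate 3 and was absent from the others. A further deposited list of replicate 1 held both places, at ranks 10945 near Mycn and 1786 near Lin28a, and with that list in place of the one used both were sites. No Sox4 peak of any strength lay over the start of Lin28a, Lin28b, Myc, Mycn, Mycl, Hmga1 or Igf2bp1, and that of Hmga2 had one at rank 62544 in replicate 1 only. Myc and Hmga1 had no peak in the whole window in replicate 3. The windows of the 8 genes held 134, 66 and 29 deposited Sox4 peaks in replicates 1, 2 and 3. Those within the 20000 strongest, ties included, merged into 62 Sox4 windows from any replicate, of which 14 lay over an ATAC region (22.6%, beside 9.4% of 72520 windows overall).

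**Figure D5:**
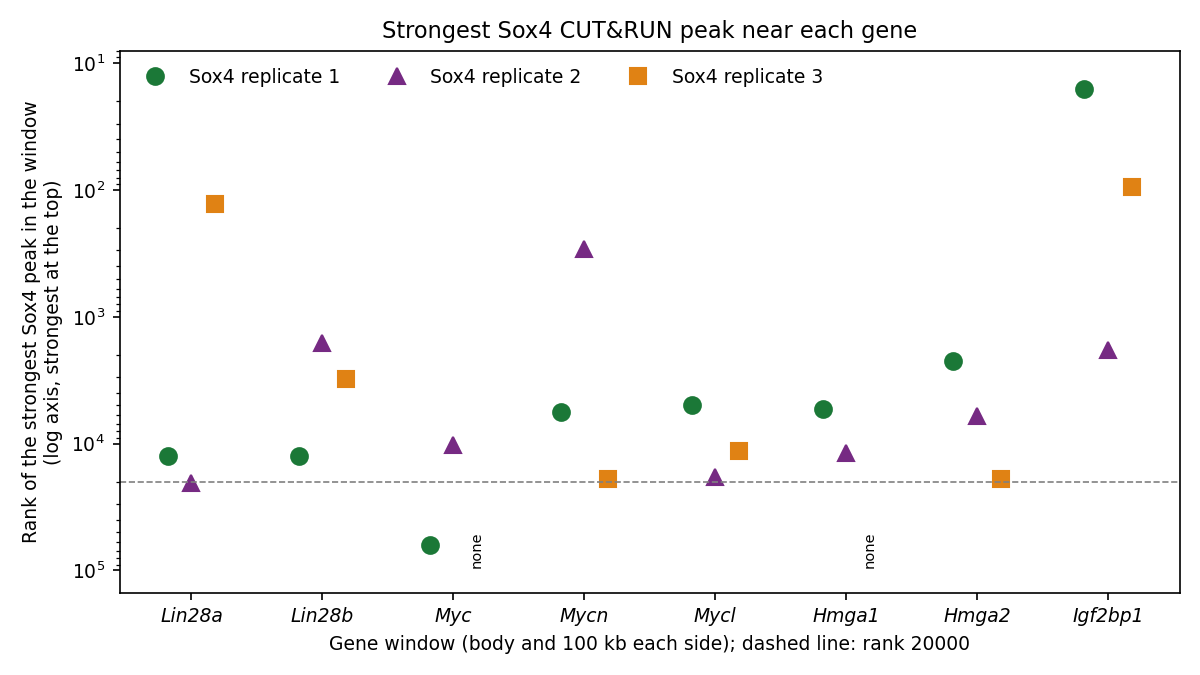
Rank of the strongest Sox4 CUT&RUN peak in the window of each gene (log axis, strongest at the top), one point per replicate, with "none" where a replicate had no peak and a dashed line at rank 20000. The Igf2bp1 window holds ranks 16, 1840 and 95, and the Lin28b window 12525, 1620 and 3070.

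Among 15 other genes of the Lin28 and let-7 pathway, 25 of 172 tested regions were higher in knockout (14.5%, beside 12.9% of all regions) and 16 lower (9.3%, beside 15.3%), with a median difference of 0.32. Xpo5, which exports miRNA precursors from the nucleus, had 6 of 15 regions higher and 0 lower, and Igf2bp3, a paralogue of Igf2bp1, had 5 of 12 higher and 1 lower. Cdk6, a let-7 target that drives entry into S phase, had 0 of 15 higher and 4 lower, and Drosha, the nuclear miRNA processing enzyme, had 1 of 10 higher and 3 lower. In 14 other genes of the Myc network, 35 of 161 were higher (21.7%, beside the same 12.9%) and 12 lower (7.45%, beside 15.3%), with a median of 0.34. Mlx, a bHLH partner within the network, had 6 of 12 higher and 0 lower, and Zbtb17, the MYC partner MIZ1, had 5 of 16 higher and 0 lower. Max, the obligate partner of MYC, had 0 of 10 higher and 3 lower, and Mycbp2 had 0 of 8 higher and 4 lower. The single genes named so far are a selection with unequal counts. Others were closer to balance, such as Mxi1 (2 of 20 higher, 1 lower), Ago2 (2 of 12 higher, 2 lower) and Dgcr8 (1 of 12 higher, 1 lower). All these counts are for windows with the same flanks as above, which can hold other coding genes. The part of gene density in them was not tested.

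Of the let-7 genes themselves, 10 autosomal loci could be placed, whereas Mirlet7f-2 and Mir98 are on chromosome X, which was not ranked. Some loci lie side by side (Mirlet7a-1, Mirlet7d and Mirlet7f-1, and Mirlet7b and Mirlet7c-2), so that the 10 share 7 windows. These had 15 of 71 tested regions higher in knockout (21.1%, beside 12.9% of all regions) and 12 lower (16.9%, beside 15.3%). They differed among each other. The window of Mirlet7a-2 had 5 of 11 regions higher and 0 lower, and that of Mirlet7c-1 had 0 of 8 higher and 3 lower. Around Mirlet7e, 3 of 13 were higher and 6 lower, and around Mirlet7i 1 of 11 higher and 3 lower. The windows of Mirlet7g, Mirlet7b and Mirlet7a-1 had 3 of 8, 2 of 12 and 1 of 8 higher, and 0 lower in each. No Sox4 site in at least 2 replicates lay over an ATAC region near any of them.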

How the data were processed

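The ATAC and Sox4 CUT&RUN files deposited by the authors were MACS2 narrowPeak lists on mm10, made with MACS2, STAR and deepTools (and UMI-tools in the Sox4 samples), per the submitters' processing notes, which give no versions. The values deposited by the authors were the ratio (fold) of each peak over local background and -log10 p. The single-cell counts were not used, because their rows carry no gene names.

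Overlapping autosomal peaks were merged and ranked by -log10 p, and peaks of equal -log10 p shared the best rank of their block. Windows of 501 bp around the summits of the 50000 strongest ATAC and 20000 strongest Sox4 peaks were merged into regions. Regions with a peak in all 5 ATAC libraries were tested with limma 3.58.1 (R 4.3.3) on -log2 rank, without a replicate block, at an adjusted p of 0.05 over 61353 regions. P-values measure the spread between libraries whose embryos the labels do not separate. On simulated data for this comparison, with 61353 regions, 74 of 100 regions shifted by 2 and 94 of 100 shifted by 4 (log2) were called, and 23 unshifted ones.

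The members, gene lists and tests were chosen with earlier results of these data known. Named regions were those over gene starts, those with the best wildtype rank, up to 4 called per gene, those with summits in 1 genotype only and Sox4 sites. The gene lists were the Lin28 and let-7 pathway, the Myc network, the let-7 loci, and markers of epithelium, mesenchyme, blood with endothelium, and neurons with glia. Blood and endothelium markers had a peak for 2 of 4 genes in each library, and Hbb-bt had none.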

Additional observations from a re-analysis of the deposited data

How the results depend on the processing

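Of the 34 regions called near the 8 genes, 8 kept their call and direction under each alternative that could be run for them: those in Bves and in Lin28b, 30971 bp and 3317 bp downstream of Mycn, 10014 bp upstream of Mycl, 21364 bp upstream of Hmga1, in Crybg2 and in Snf8. Without 1 library, 24 of the 34 lost the call at least once, most often without knockout replicate 1 (24) or 2 (14). Calls near the 8 genes then ranged over 6 to 26 higher and 4 to 16 lower, and over all regions 2405 to 9260 higher and 3944 to 10193 lower. Ranks divided by list length gave 12929 higher and 5630 lower over all regions and 32 and 7 near the 8 genes, with a median over all regions of 0.27. A peak overlap of at least 250 bp left fewer regions to test and gave 4798 higher over all and 13 near the 8 genes, and keeping regions without a peak gave 12304 higher over all. On the quantile normalized fold, 14 calls were lost and 2 turned round, the region at the end of Atp5g1 (-0.23) and one in Nudt3 (-0.0204), and the cause was not tested. The correlation of deviations from the group means was 0.0985 for replicates 1 and 0.0594 for replicates 2. With 2 knockout libraries their deviations mirror each other, so whether replicate numbers pair the samples cannot be told. With a replicate block, 24 regions near the 8 genes were higher and 18 lower, and 15.5% and 18.7% of all regions.

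Region classes followed the number of peaks kept: 10 knockout-only and 21 shared at 25000 peaks, 88 shared at 100000, and 3 wildtype-only, 50 knockout-only and 120 shared with all deposited peaks. Full peak extents gave 5 wildtype-only, and leaving out regions under a strong peak of the other genotype, chosen after seeing the data, also gave 5. Within 10 kb of the genes there were 5 wildtype-only, 4 knockout-only and 18 shared, and with a member as nearest gene 6 knockout-only and 25 shared. Leaving out 1 library gave 9 to 11 wildtype-only, 16 to 23 knockout-only and 52 to 59 shared. A window overlap of 250 bp changes no class by construction. Sox4 sites numbered 7 with 50000 peaks and 1 within 10 kb, and 1 to 2 without 1 replicate. The other list of replicate 1 gave 4, without the Hmga2 site and with those near Mycn and Lin28a. Ordering tied peaks by position, chosen after seeing the data, gave 2 sites, 8 wildtype-only, 16 knockout-only and 50 shared regions. Depth is unknown and limits what a missing peak means.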
